A study of Mus musculus with 4 samples.

Results

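The 10 genes described here are the immediate early genes of the EGR, NR4A and IER families: Egr1, Egr2, Egr3, Egr4, Nr4a1, Nr4a2, Nr4a3, Ier2, Ier3 and Ier5. They were chosen by name, each was found on the array through the RefSeq accession of 1 probe, and 8 of the 10 passed the filter on dim probes and were tested among 14995 features. Both groups were RNA of mouse intact ureteric buds, the epithelial outgrowths from which the ureter and collecting ducts form. All buds lay in matrix gel in DMEM/F12 with 10% serum and with GDNF and HGF at 100 ng/ml each, so the control carries serum and both growth factors too. One group received angiotensin II (AngII, 1e-05 M) for 6 h and the control received media alone for the same time. Each of 4 two-colour arrays, all on 1 slide, carried both RNAs of 1 numbered pair. The labels number 2 pairs, and each was hybridised with AngII in Cy5 and again with AngII in Cy3. The labels used here state no age, strain or number of animals.

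Immediate early genes are transcribed from pre-existing factors as soon as a cell is stimulated, without new protein synthesis, and their transcripts are usually short-lived. EGR proteins are zinc finger transcription factors that bind GC-rich sites, and the serum response factor with its ERK-activated partners drives their genes. NR4A proteins are orphan nuclear receptors that bind DNA without a known hormone, and their genes respond to cAMP and calcium. In the adrenal gland AngII is known to induce Nr4a1. The IER genes share a name and fast kinetics more than a function: Ier2 encodes a small nuclear protein, Ier3 a regulator of cell survival that is a target of NF-kB, and Ier5 a protein that recruits a phosphatase to heat shock factor 1.

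The promoters of Egr2, Egr4, Nr4a1, Nr4a2 and Ier3 are shown. These genes are grouped by fast transcription, while their ratios below point both ways. That of Ier5, which also passed, held no motif match and is not printed. Windows of the RefSeq promoter table (GRCm38.p6) were read for 7 of the 10 members. No window was found for Egr3 and Ier2, and Egr1 was left out of the search by choice. Each sequence is the 250 bases before a start site, 5′ to 3′ on the gene's strand, with motif matches on either strand in capitals. Egr2 has 5 start sites in the table and the window printed is number 3 of these in order of position.
Egr2, chr10:67537619-67537868, plus strand: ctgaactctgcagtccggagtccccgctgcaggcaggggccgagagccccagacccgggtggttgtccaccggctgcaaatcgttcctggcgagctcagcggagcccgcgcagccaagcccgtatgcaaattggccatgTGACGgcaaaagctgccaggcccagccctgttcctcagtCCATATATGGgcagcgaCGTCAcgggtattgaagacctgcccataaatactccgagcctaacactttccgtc
Egr4, chr6:85513590-85513839, minus strand: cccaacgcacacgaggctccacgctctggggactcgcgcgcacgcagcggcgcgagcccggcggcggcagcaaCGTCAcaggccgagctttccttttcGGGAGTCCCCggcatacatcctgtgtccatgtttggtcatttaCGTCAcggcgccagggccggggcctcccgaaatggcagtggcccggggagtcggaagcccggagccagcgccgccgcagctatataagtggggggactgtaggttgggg
Nr4a1, chr15:101266596-101266845, plus strand: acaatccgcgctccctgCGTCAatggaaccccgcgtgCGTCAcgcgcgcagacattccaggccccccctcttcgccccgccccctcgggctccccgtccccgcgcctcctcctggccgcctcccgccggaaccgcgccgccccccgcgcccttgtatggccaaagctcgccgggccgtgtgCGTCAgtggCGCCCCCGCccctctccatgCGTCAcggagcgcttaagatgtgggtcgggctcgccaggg
Nr4a2, chr2:57124004-57124253, minus strand: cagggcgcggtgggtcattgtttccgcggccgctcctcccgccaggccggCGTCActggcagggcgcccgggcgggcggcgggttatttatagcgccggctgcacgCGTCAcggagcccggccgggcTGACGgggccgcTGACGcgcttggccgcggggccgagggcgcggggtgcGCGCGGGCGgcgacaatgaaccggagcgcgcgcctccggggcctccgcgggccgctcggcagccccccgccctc
Ier3, chr17:35821463-35821712, plus strand: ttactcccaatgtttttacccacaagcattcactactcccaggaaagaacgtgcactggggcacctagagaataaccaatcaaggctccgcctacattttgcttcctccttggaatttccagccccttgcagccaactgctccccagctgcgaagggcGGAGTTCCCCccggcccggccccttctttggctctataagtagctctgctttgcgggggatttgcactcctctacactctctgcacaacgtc

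The searches were for the serum response element (CArG box), the cAMP response element TGACGTCA, its core TGACG, the EGR site GCGNGGGCG, the NR4A site NBRE AAAGGTCA, the NF-kB site and the heat shock element GAANNTTC. The core lies within the full cAMP response element, so a match to the full element would count as both. The core was present in 5 of the 7 members, Egr2, Egr4, Nr4a1, Nr4a2 and Nr4a3, and in 19.8% of the 27025 genes with such a window. It occurred 2 times in the Egr4 window and 4 times in each of the 3 NR4A windows. A CArG box was found in Egr2 alone of the 7, in 4 of its 5 windows, and in 1.62% of all genes. Egr2 windows 3, 4 and 5 overlap and hold the same box. A gene was counted if any of its windows matched, and 1.47% of all windows held a CArG box. The EGR site matched in Nr4a1 and Nr4a2 (5.33% of all genes) and the NF-kB site in Egr4 and Ier3 (4.46%). These letters for the full cAMP response element (1.77%), NBRE (1.55%) and the heat shock element (7.73%) were not in the 7 members' windows, and the Ier5 window held no match to any of the 7 motifs. Members with the core therefore include genes with ratios above 0 (Egr2, Egr4) and below 0 (Nr4a1, Nr4a2). A match describes the letters of the window and is not evidence of binding.

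After 6 h with AngII the tested members moved in both directions. Egr2 was 1.98-fold higher, Nr4a1, Nr4a2 and Ier2 were 1.54 to 1.57-fold lower, and Ier3 was 1.20-fold lower. Egr4 was 1.18-fold higher and Ier5 1.15-fold lower, but neither passed with the replicate block, and Ier5 was above 0 on both arrays with AngII in Cy3. Egr1 did not pass. In limma, with Benjamini-Hochberg adjustment over all features at 0.05, 2 of the 8 members passed as higher and 5 as lower. Of all features 77.3% passed, 39.1% higher and 38.1% lower, so passing this threshold does not by itself set a member apart. With the replicate block, a fit that keeps the dye difference in its error, 1 member was higher and 4 were lower, where 16.3% of all features were higher and 14.7% lower. At a change of at least 1.5-fold, 1 member was higher and 3 were lower, where 5.5% of all features were higher and 5.4% lower. With median centring in place of loess 1 member was lower by as much, as Nr4a1 and Ier2 came to -0.55 each on the log2 scale. The median log2 ratio of AngII over media was -0.23 over the 8 members and 0.00 over all features. It depended on the dye, at -0.47 from the arrays with AngII in Cy5 and -0.067 from those with AngII in Cy3, and it was -0.13 over all 10 members with no filter. As these are whole buds, fewer cells of a type and less RNA per cell cannot be told apart.

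Precision here is limited by the number of arrays. The labels call pair 2 a biological replicate, without naming separate animals or cultures. The ratios of the 2 pairs correlated across features at r = 0.98, and the SD of their half-difference (0.04) was that of array noise alone (0.04). In limma, 0 features differed between the pairs at an adjusted p under 0.05, and 771 at an unadjusted p under 0.05. This does not show that the RNAs are the same. As no difference beyond array noise was seen, the pairs are read here as 1 pair of RNA samples. The fit itself took the 2 numbers as 2 replicates. The limma SEs and p-values then measure the spread between hybridisations, which may be technical. The dye mattered more: arrays of the same dye orientation correlated at 0.96 and 0.97, and the 2 arrays of a dye swap at 0.67 and 0.68. Between 19028 and 21922 of 41174 probes were well above background in a given RNA on a given array. Of 12 ureteric bud markers 11 were tested, Ret being too dim for the filter. Beside 39.1% higher and 38.1% lower over all features, 6 of these rose and 4 fell, with a median log2 ratio of 0.10. Their summed linear intensity, most of it from the keratin genes Krt8 and Krt18, was 235690 to 308224 in media and 214989 to 241267 under AngII.

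**Figure D1:**
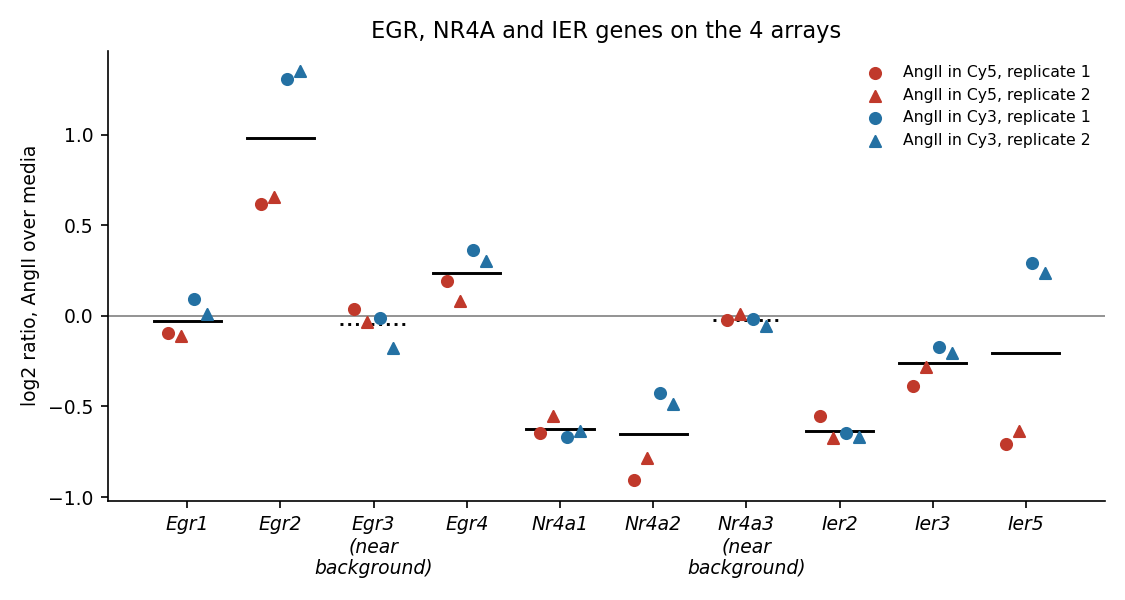
Log2 ratio of AngII over media (y axis) for each of the 10 genes (x axis) on the 4 arrays, coloured by the dye that held AngII, with the symbol giving the replicate number; horizontal lines are means over the arrays, dotted for the 2 genes near background that were not tested. Egr2 and Egr4 lie above 0 on all 4 arrays, Nr4a1, Nr4a2, Ier2 and Ier3 lie below 0 on all 4, and Ier5 lies below 0 with AngII in Cy5 and above 0 with AngII in Cy3.

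Egr2, also known as Krox20, a regulator of hindbrain patterning and of myelination by Schwann cells, rose against the group. Its log2 ratio was 0.62 and 0.66 with AngII in Cy5 (replicates 1 and 2) and 1.31 and 1.35 with AngII in Cy3. All 4 arrays were above 0, with a larger ratio in both arrays of the Cy3 orientation. The mean was 0.98 (SE 0.03; limma adjusted p = 4.84e-20), above that of 98.8% of all features. The Egr2 probe is printed at 10 places on each array, so its ratio can be read spot by spot. The spots of an array share 1 probe and the same labelled RNAs, so they are not replicates of the treatment. The 10 spots ran from 0.49 to 0.71 and from 0.56 to 0.75 on the Cy5 arrays, and from 1.19 to 1.38 and from 1.23 to 1.49 on the Cy3 arrays. No spot was at or below 0, and the spots of the 2 dye orientations did not overlap. The SD over spots of 1 array was 0.06 to 0.08, so the gap between orientations (0.64 against 1.33) was larger than the spread between spots. That gap was also larger in size than that of 95.8% of all features. In the authors' deposited table, made from the same arrays, the 10 spots had log2 ratios of 0.93 to 1.04 and adjusted p-values of at most 1.1e-05.

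**Figure D2:**
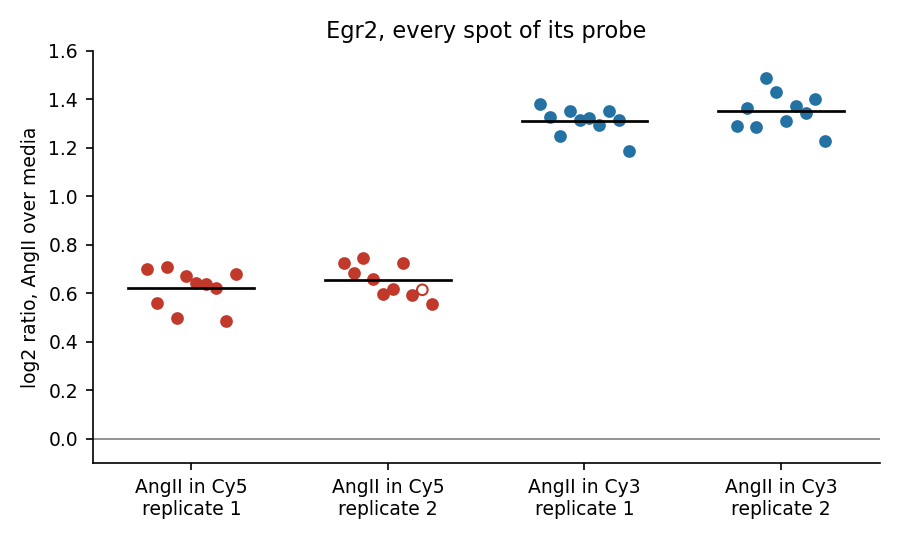
Log2 ratio of AngII over media (y axis) at each of the 10 spots of the Egr2 probe on the 4 arrays (x axis); lines are the means of the spots kept, and the open circle is the 1 spot left out as a scanner outlier. Every spot lies above 0, between 0.49 and 0.75 with AngII in Cy5 and between 1.19 and 1.49 with AngII in Cy3.

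The level of Egr2 in the media RNA was almost the same on every array, at a normalised log2 intensity of 9.25 to 9.37. In the AngII RNA it was 9.90 and 9.91 when labelled with Cy5 and 10.66 and 10.73 when labelled with Cy3. The normalised AngII levels therefore lay above every media level, and on this scale the dye difference showed in the AngII RNA. Before normalisation the signal above background was 1035 to 1424 in the AngII RNA and 250.8 to 1336 in the media RNA. Here and below, such ranges pool both dyes, which differ in raw signal. At spot 1 of replicate 1 the raw media signal was 271 in Cy3 and 1026 in Cy5. The raw AngII signal there was 1269 in Cy3 and 1062 in Cy5. Egr2 is also expressed in leukocytes and in cells of the neural crest lineage. Of 5 tested leukocyte markers 3 rose (Ptprc by 0.64, Cd74 by 0.57 and Tyrobp by 0.33 on the log2 scale). The other 2 fell (C1qa -0.19 and Csf1r -0.13). The summed linear intensity of all 5 was 590 to 622 in the AngII RNA and 479 to 519 in the media RNA. Such sums include the offset of 50 added to each signal. The 5 were dim, with a mean log2 intensity of 6.44 to 7.31, beside 6.00 for Egr3, which was too dim to test. The neural markers Stmn2 and Snap25 were too dim for the filter, and Tubb3 (which fell by 0.78) and Elavl4 together summed to 438 to 577 in the AngII RNA and 632 to 728 in the media RNA. Erythroid markers rose in 7 of 8, from a summed 6044 to 7172 in media to 32273 to 39914 under AngII. Of 6 stromal markers 5 rose and 1 (Foxd1) fell, and they summed to 21051 to 22264 in media and 30449 to 33068 under AngII. Acta2 (1.69, other probes 0.65 to 1.03) and Cspg4 (1.07, another probe 0.66) rose most. Pdgfrb (0.55 with AngII in Cy5, -0.08 with AngII in Cy3) changed sign with the dye. So did Col3a1 (-0.05 and 0.28) and Foxd1 (-0.46 and 0.14). Of 6 nephron progenitor markers 2 rose and 4 fell (5034 to 5523 in media, 4997 to 5792 under AngII), and of 5 tested endothelial markers 1 rose and 3 fell (755 to 789 in media, 693 to 730 under AngII). The endothelial markers were dim too, with a mean log2 intensity of 6.39 to 8.17. Over all features 39.1% passed as higher and 38.1% as lower. The part of the cell types named here in the results for Egr2 and the other members was not tested.

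Egr4, an EGR factor known mostly from neurons and germ cells, was the other member to pass as higher. Its log2 ratio was 0.19 and 0.08 with AngII in Cy5 and 0.37 and 0.30 with AngII in Cy3, a mean of 0.24 (SE 0.04; limma adjusted p = 7.19e-07). It was above 0 on all 4 arrays. Egr4 was dim, with only 53 to 68 intensity units above local background in the AngII RNA and 21 to 81 in the media RNA, although well above background by the scanner's test on all 4 arrays. Egr4 no longer passed with the replicate block (limma adjusted p = 0.0735). The offset of 50 added to the signals shrinks ratios of dim probes, and the log2 ratio was 0.47 with an offset of 0 and 0.57 with Agilent's processed signals. In the authors' deposited table its log2 ratio was 0.29 (adjusted p = 0.000183).

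Egr1, the EGR member most used as a readout of ERK and serum response factor activity, had log2 ratios of -0.09 and -0.11 with AngII in Cy5 and 0.09 and 0.01 with AngII in Cy3. Its arrays lay on both sides of 0, and the mean of -0.03 (SE 0.03) did not pass (limma adjusted p = 0.508). It was well measured, at 273 to 482 intensity units above background in the AngII RNA and 178.5 to 659.5 in the media RNA. Of the 1024 features within 0.25 log2 units of its mean intensity, 5.86% had a smaller absolute ratio. The authors' deposited table gives -0.03 (adjusted p = 0.531). Egr3, which in lymphocytes acts beside Egr2, was not well above background in either RNA on any of the 4 arrays. Its signal was at most 8 units over local background in the AngII RNA and 17 in the media RNA, so it has no ratio that can be read here.

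Nr4a1 (Nur77) had log2 ratios of -0.65 and -0.55 with AngII in Cy5 and -0.67 and -0.64 with AngII in Cy3. The 4 arrays were alike in size as well as direction, and dye orientation moved this gene little. The mean was -0.63 (SE 0.03; limma adjusted p = 1.57e-15), and its level was 13.31 to 13.40 log2 units in media and 12.67 to 12.76 under AngII. Nr4a2 (Nurr1), needed for dopaminergic neurons, had -0.91 and -0.78 with AngII in Cy5 and -0.42 and -0.49 with AngII in Cy3. It fell on all 4 arrays, by a mean of 0.65 on the log2 scale (SE 0.03; limma adjusted p = 5.05e-16), with the larger fall where AngII was in Cy5. Its levels were 8.53 to 9.16 in media and 7.96 to 8.52 under AngII, so they barely separate. In the authors' deposited table Nr4a1 has -0.63 and Nr4a2 -0.68. Nr4a3 (Nor1) was not well above background in either RNA on any array, with at most 7 intensity units over background in the AngII RNA and 8.5 in the media RNA. Like Egr3, it was not tested.

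Ier2 had log2 ratios of -0.55 and -0.68 with AngII in Cy5 and -0.64 and -0.67 with AngII in Cy3, a mean of -0.64 (SE 0.03; limma adjusted p = 1.23e-15). All 4 arrays gave a like ratio, although the signal of the spot itself differed between arrays, with levels of 12.63 to 13.52 in media and 11.99 to 12.97 under AngII. Those levels overlap between the groups while the ratio within each array does not come near 0. Nr4a2, Ier2 and Nr4a1, the lowest 3 members, had ranges over the arrays that overlap, and their order is not resolved. Ier3 fell less, with -0.39 and -0.28 with AngII in Cy5 and -0.17 and -0.20 with AngII in Cy3. Its mean was -0.26 (SE 0.03; limma adjusted p = 9.46e-08), and with the replicate block it lay at the threshold (limma adjusted p = 0.0499). In the authors' deposited table Ier2 has -0.65 and Ier3 -0.28.

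Ier5 passed as lower on the mean of the arrays but its sign depends on the dye. Its log2 ratio was -0.71 and -0.64 with AngII in Cy5 and 0.29 and 0.24 with AngII in Cy3. The 2 arrays of an orientation gave like ratios, and the 2 orientations oppose. The mean of -0.20 (SE 0.03; limma adjusted p = 4.50e-06) is thus a mean over orientations of opposite sign. With the replicate block it did not pass (limma adjusted p = 0.532), and in the authors' deposited table the log2 ratio of -0.20 has an adjusted p of 0.0840. Its difference between orientations was larger in size than that of 98.9% of all features. In the media RNA its normalised level was 13.00 to 13.11 on all 4 arrays. In the AngII RNA it was 12.37 and 12.39 in Cy5 and 13.28 and 13.40 in Cy3. Before normalisation its signal above background was 6368 to 8427 in the AngII RNA and 3459 to 18920 in the media RNA. Signs that oppose between orientations on all 4 arrays occurred in 21.7% of all features, and in 12.4% of those that passed. Among the 8 tested members they occurred in Egr1 and Ier5.

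**Figure D3:**
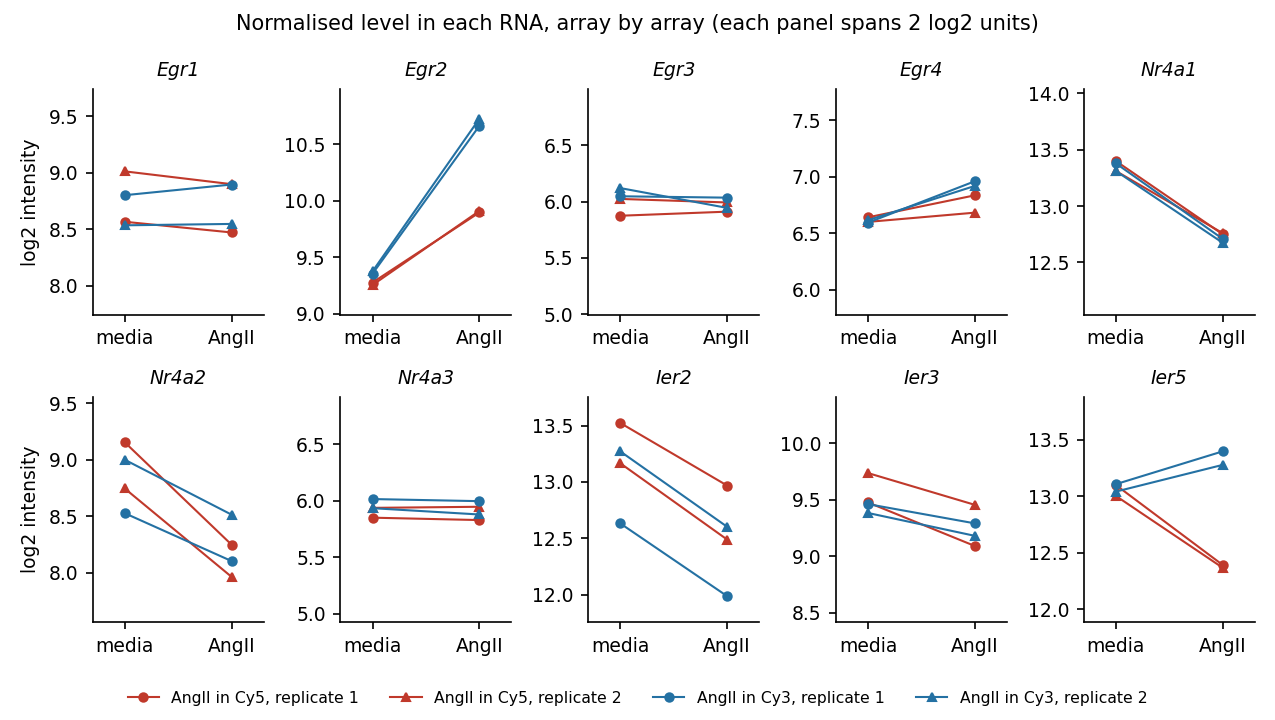
Normalised log2 intensity (y axis) of each gene in the media and the AngII RNA (x axis), with a line for each array, coloured by the dye that held AngII; each panel spans the same range of log2 units. Egr2 rises and Nr4a1 falls on every array from media levels that differ little, Ier2 and Ier3 fall in parallel from different starting levels, and the lines of Ier5 diverge by dye.

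Seen over the levels of the arrays, 4 of the 8 tested members had AngII and media levels that did not overlap: Egr2 and Egr4 with AngII higher, Nr4a1 and Nr4a2 with AngII lower. The same was true of 33% of all features. Ier2, Ier3, Ier5 and Egr1 overlapped. Beside features of like intensity, the absolute ratio of Egr2 was larger than that of 96.0% of 916 features, of Nr4a1 than 93.3% of 315, of Ier2 than 91.3% of 356 and of Nr4a2 than 86.2% of 1040. Ier3 and Ier5 lay in the middle, at 47.5% of 972 and 48.8% of 330. Egr4 exceeded 73.3% of 2226 features as dim as itself.

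**Figure D4:**
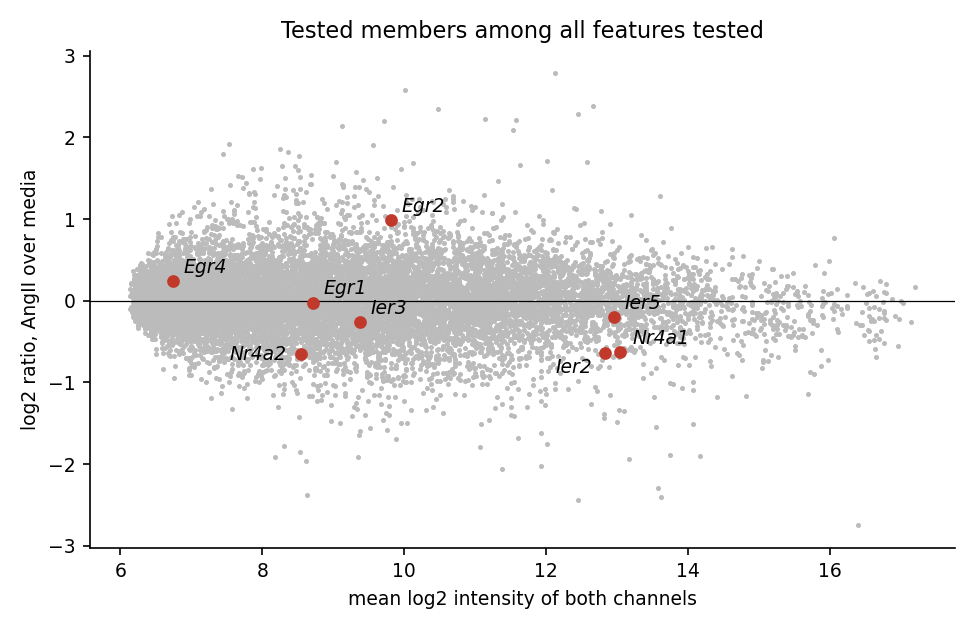
Log2 ratio of AngII over media (y axis) against mean log2 intensity (x axis) for the 14995 features tested (grey), with the 8 tested members in red. Egr2 stands near the upper edge, Nr4a1, Nr4a2 and Ier2 toward the lower edge, and Egr1 close to 0.

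Other immediate early genes were mostly lower. Of 33 tested on a list of 37, 27 were lower, 5 higher, and 1 (Mcl1) missed the threshold. Their median log2 ratio was -0.62, beside 0.00 for all features, of which 38.1% were lower. At least 1.5-fold, 18 were lower and 0 higher, beside 5.4% lower and 5.5% higher over all features. Dusp1, a MAP kinase phosphatase, fell by 1.46 on the log2 scale (-1.75 to -1.10 over the arrays), Csrnp1 by 1.37 (another probe -1.01), the stress factor gene Atf3 by 1.31 and Klf2 by 1.27 (another probe -0.64). Those that passed as higher were Sgk1, Gadd45g, Junb, Klf10 and Dusp2, and the highest of them, Sgk1, had 0.53, below the 0.98 of Egr2. Dusp2 (-0.24 with AngII in Cy5, 0.46 with AngII in Cy3) and Junb (-0.07 and 0.30) changed sign with the dye. Klf10 had 0.00 and 0.21, and Sgk1 and Gadd45g were above 0 in both orientations. With the replicate block 20 of the list were lower and 1 was higher, beside 14.7% lower and 16.3% higher over all features.

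Of the regulators of EGR and NR4A genes and their protein partners, 21 of 25 were tested, and 13 were lower and 4 higher, with a median of -0.13, beside 38.1% lower and 39.1% higher over all features. Ier5l, a paralogue of Ier5, fell by 0.92 (-1.21 to -0.63 over the arrays), on every array and in both dye orientations. Crem, a cAMP-responsive regulator with an inducible repressor form, fell by 0.73 (other probes -0.72 to -0.05), Rxrb, a retinoid receptor of the family that pairs with Nr4a1 and Nr4a2, by 0.68 (another probe -0.92), and Mef2d, which drives Nr4a1 in lymphocytes, by 0.59. The serum response factor gene Srf and Nab2, the EGR corepressor that EGR proteins induce, were too dim to be tested. Under the replicate block 6 were lower and 1 was higher, beside 14.7% lower and 16.3% higher over all features. In the ERK cascade 6 of 15 tested genes were lower, 3 higher and 6 past neither side of the threshold. Their median was -0.03, and the share lower was near the 38.1% of all features. Hras fell by 0.88 (-1.29 to -0.50), the ribosomal S6 kinase gene Rps6ka1 by 0.68 (another probe -0.26) and Map2k2 by 0.67, and Araf rose by 0.58. Under the replicate block 4 were lower and 1 was higher, beside the same 14.7% and 16.3% of all features.

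**Figure D5:**
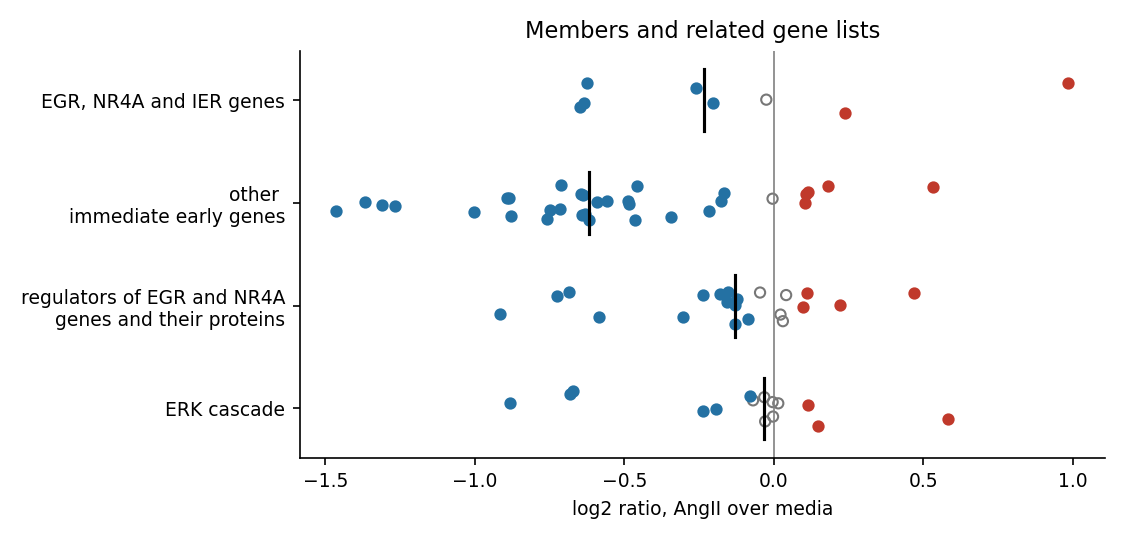
Log2 ratio of AngII over media (x axis) of the tested genes of each list (rows), filled red where higher and blue where lower at a limma adjusted p under 0.05 and open where not passed; black bars are medians and vertical scatter has no meaning. The other immediate early genes have a median of -0.62, the EGR, NR4A and IER genes -0.23, the regulators -0.13 and the ERK cascade -0.03, and Egr2 is the rightmost point at 0.98.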

How the data were processed

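RNA (300 ng) was labelled with Cy3 and Cy5 and hybridised to two-colour Agilent arrays, per the labels. The deposited intensity values are median spot and background signals and processed signals written by version 10.5.1.1 of Feature Extraction (per the file headers). Also deposited are a log10 ratio per spot, which no result here uses, and flags that work as a score of 0 or 1. The authors' deposited table gives log2 ratios, adjusted p-values and a call, a score of -1, 0 or 1; the submitters' processing notes name limma, with no version or model.

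Here, in R 4.3.3 with limma 3.58.1, median signals were corrected by normexp (offset 50) and normalised by loess within arrays, with control spots at weight 0. Outlier spots (1 of the members' spots) were left out and no member's spot was saturated. Spots of a probe were averaged, ratios turned to AngII over media, and the 2 arrays of a number averaged. The replicates were tested against 0 with lmFit and eBayes, adjusted over 14995 features. Kept probes were well above background in 1 of the RNAs on all 4 arrays. The brightest tested probe stood for a gene. Levels are channel values after Aquantile. Probes took gene symbols by unversioned accession from the RefSeq table of GRCm38.p6 (25097 named). The array annotation is mm9, so array coordinates are not given, and promoter coordinates are those of RefSeq. Pairing by number is built into each ratio, since both RNAs shared the array.

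Named genes are the 10 members and up to 4 genes with the smallest p in each related list; Ret, Sgk1, Gadd45g, Junb, Klf10, Dusp2, Mcl1, Srf, Nab2 and the cell type markers were named after their values were seen. The members and lists were chosen with earlier results of these data known. One cell type marker is not reported here.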

Additional observations from a re-analysis of the deposited data

Results flagged for a closer look

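Ier5 and Egr1 had signs that opposed between the dye orientations on every array. The mean log2 ratio of Ier5 was -0.67 with AngII in Cy5 and 0.26 with AngII in Cy3. That of Egr1 was -0.10 with AngII in Cy5 and 0.053 with AngII in Cy3. The difference between orientations was not tested.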

How the results depend on the processing

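Of 12 alternatives, the changes of filter, the mean over probes and the replicate block leave a member's ratio as it is by construction. In the other 8 Egr2, Egr4, Nr4a1, Nr4a2, Ier2 and Ier3 kept their sign. Egr2 ran from 0.64 to 1.33, Egr4 from 0.14 to 0.57, Nr4a1 from -0.66 to -0.55, Nr4a2 from -0.84 to -0.46, Ier2 from -0.67 to -0.55 and Ier3 from -0.33 to -0.19. Egr1 ran from -0.10 to 0.05 and passed in none of the 10 alternatives with a test. With the replicate block 4641 features and 5 members passed, and Egr4 (0.24, limma adjusted p = 0.0735) and Ier5 (-0.20, limma adjusted p = 0.532) did not. In the other 9 alternatives with a test 7 members passed. From the Cy3 arrays alone Ier5 had 0.26 and passed as higher (limma adjusted p = 0.000596), against its sign in the main fit. The members' median was -0.25 with no background correction and with Agilent processed signals, -0.18 with median centring, -0.13 with no filter on dim probes (which adds Egr3 and Nr4a3), -0.47 from the Cy5 arrays alone and -0.067 from the Cy3 arrays alone (arrays named by the dye of AngII). At least 1.5-fold lower were 3 members, but 1 with median centring, 4 from the Cy5 arrays alone and 2 from the Cy3 arrays alone. Leaving out a replicate left 1 ratio and so gave values with no test. Signal limits Egr3 and Nr4a3, which were not above background, and Egr4, which was near it.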
